A study of Sus scrofa with 8 samples.

Results

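Collagens, laminins, proteoglycans and the glycoproteins bound to them form the extracellular matrix of the endometrium, and their transcripts are described here in pregnant gilts of a prolific Chinese breed, Meishan, and of a Western breed, Yorkshire. A probeset, the set of probes with which an Affymetrix array measures a transcript, was a member if its symbol began with COL, LAMA, LAMB or LAMC followed by a digit, or was FN1, SPARC, DCN, LUM, BGN, FBN1, ELN, FMOD, VCAN, HSPG2, NID1, LOX, POSTN, TNC or THBS1. By this rule 73 of the 23999 tested probesets were members, and they belonged to 33 genes. The array's annotation named 64 of them, in 29 genes. The other 9 were no member by that annotation, which gives 8 of them no symbol and 1, COL5A2 1, that of another gene (CS), and were named only in a list of transcripts that the study drew from this same comparison of the breeds, here called the study's list, so these 9 are described but counted in no total below unless this is said. ELN, FMOD, HSPG2 and NID1 were not analysed here.

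Endometrium was taken on day 12 of gestation from 4 Meishan gilts and from 4 Yorkshire gilts, and each gilt gave 1 array. Gilts of both breeds had been mated naturally to boars of their own breed, and a gilt was used only if her uterus held elongated conceptuses. Every animal was thus pregnant, there was no non-pregnant group, and breed of dam, breed of sire and breed of conceptus cannot be told apart. The lining was taken from the opened uterus as bulk tissue, in which fewer cells of a type and less RNA per cell cannot be told apart.

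The matrix is built in layers. Fibrillar collagens form the fibres of the stroma, type IV collagen and laminins form the sheets of basement membrane beneath epithelium and around vessels, and fibronectin and the small leucine-rich proteoglycans bind to collagen and to cells. In the pig the conceptus attaches to the uterine epithelium without invading it, so that the stroma and its basement membranes stay in place beneath the attached trophoblast, while matrix proteins such as fibronectin and osteopontin are known as ligands of integrins at the surface where both meet.

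Signals below are the deposited intensities on a linear arbitrary scale after each array was scaled to a common median, means are geometric, and a difference is the log2 signal of Meishan minus that of Yorkshire with its standard error (SE). Signals of different probesets cannot be set against each other, since probes differ in how strongly they bind, and probesets of a gene are numbered from the brightest. A mean signal under 64 in a breed is called near background.

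The brightest probesets of versican (VCAN), fibronectin (FN1) and lysyl oxidase (LOX) and 1 probeset of the collagen chain COL5A1 were lower in all 4 Meishan gilts than in any Yorkshire gilt, with means 1.59 to 2.04 times as high in Yorkshire. The brightest probesets of SPARC and decorin (DCN) and 1 probeset of COL5A2 were higher in all 4 Meishan gilts than in any Yorkshire gilt, with means 1.21 to 1.83 times as high in Meishan. After quantile normalization, which gives every array the same distribution of signals, the log2 differences of SPARC and DCN were 0.14 and 0.030. The laminin probesets of the annotation differed by -0.39 to 0.16 on the log2 scale, and those of fibrillin (FBN1) by -0.015 and -0.023. None of these differences passed the test across the array. At a limma adjusted p under 0.1, 0 of the 64 matrix probesets were called, where 0.908% of all tested probesets were (218 of 23999). The lowest adjusted p among the members was 0.130, at VCAN. The study's list, drawn from this same comparison, also names VCAN 1, FN1 1, SPARC 1 and COL5A1 2. At an unadjusted p under 0.05 stood 13 of the 64 (20.3%), of which 5 were higher in Meishan and 8 higher in Yorkshire, beside 14.8% of all tested probesets (7.79% higher in Meishan and 6.96% higher in Yorkshire). All 4 gilts of one breed lay above all 4 of the other at 9 of the 64 (14.1%), 3 toward Meishan and 6 toward Yorkshire, beside 10.1% of all tested probesets (5.01% toward Meishan and 5.09% toward Yorkshire). As a set the 64 probesets were split evenly, with 30 higher in Meishan, 34 higher in Yorkshire and a median difference of -0.019, and over all tested probesets 51.7% were higher in Meishan and the median was 0.021. The count of calls depended on how dim signals and the variance were treated. It was 4 of 39 when dim probesets were left out (background 4%), 6 of 64 with low signals set to 32 (3.6%), 3 with an intensity trend in the variance (2.61%), 5 of 39 with that trend and the dim probesets left out (5.04%), 3 with an unmoderated linear model of the kind in the study's methods, here on the median-centred signals, and Storey q-values (2.37%) and 1 with that model and Benjamini-Hochberg adjustment (0.946%). The same model on the deposited signals without centring, which the methods describe, called 1 with Storey q-values (2.08%) and 0 with Benjamini-Hochberg adjustment (0.771%). The count stayed at 0 after quantile normalization (0.996%), after cyclic loess (0.896%) and without further scaling (0.883%).

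Of the 64 probesets, 36 had means of at least 64 in both breeds (all tested, 66.7%), 22 in neither, 3 in Meishan alone and 3 in Yorkshire alone. Among the 36, 14 were higher in Meishan and 22 in Yorkshire (38.9% toward Meishan, beside 45.8% of all probesets at this level), and the split was 18 and 18 when the deposited signals were used without further scaling. The breeds did not overlap at 7 of the 36 (19.4%, beside 10.9%), of which SPARC 1, DCN 1 and COL5A2 3 were higher in Meishan and FN1 1, VCAN 1, COL5A1 2 and LOX 1 were higher in Yorkshire. The other 28 probesets, with a mean under 64 in at least 1 breed, differed by -2.84 to 1.94, with 16 higher in Meishan and 12 in Yorkshire, and at 2 of them (7.14%), FN1 2 and VCAN 3, the breeds did not overlap, beside 8.52% of all tested probesets with such means.

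**Figure D1:**
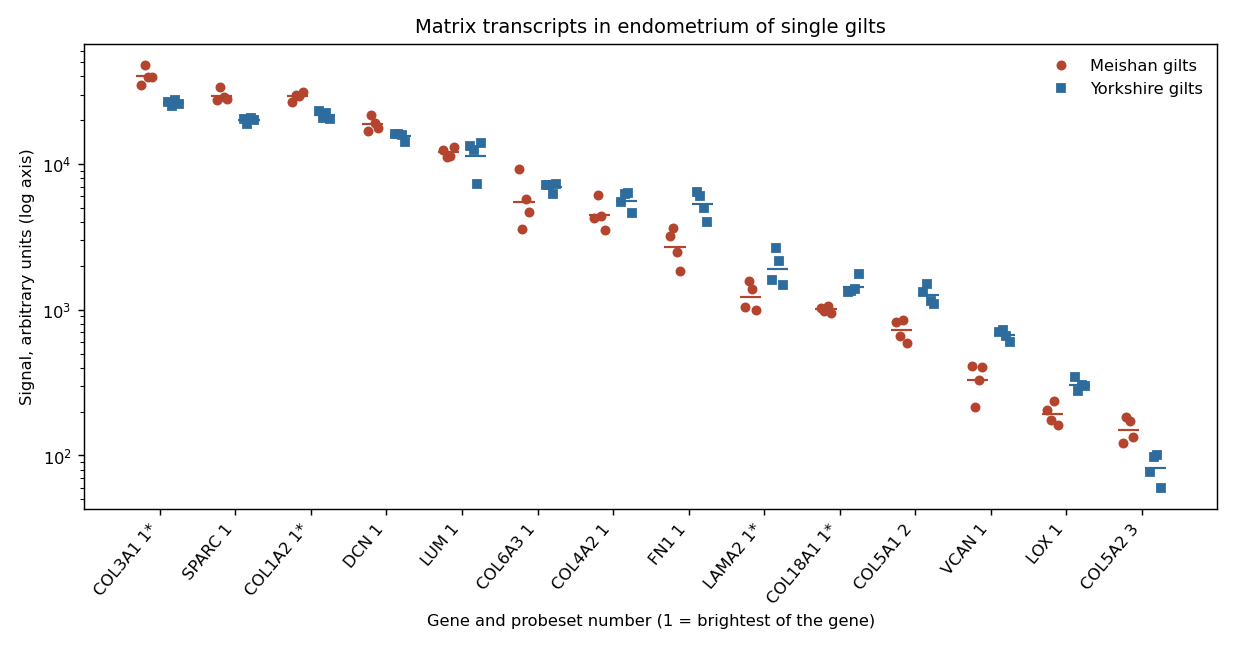
Signal (log axis, arbitrary units) of 14 matrix probesets in each gilt, with Meishan gilts as circles left of Yorkshire gilts as squares, a bar at the geometric mean of 4 gilts, and an asterisk at probesets named by the study's list alone. The circles lie above the squares at COL3A1, SPARC, COL1A2, DCN and COL5A2, and below them at FN1, COL18A1, COL5A1, VCAN and LOX.

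The fibrillar collagens were represented by 18 probesets in 7 genes, of which 9 were higher in Meishan and 9 in Yorkshire. COL3A1 encodes the chain of type III collagen, which forms fine fibres in soft tissue. Its brightest probeset (COL3A1 1, named by the study's list alone) had signals of 34836, 47794, 39837 and 39725 in Meishan gilts, against 26805, 25133, 27508 and 25834 in Yorkshire gilts. The Meishan gilts all lay above the Yorkshire gilts, and the difference was 0.62 (SE 0.17), and 0.014 after quantile normalization. The COL3A1 probeset of the annotation (COL3A1 2) read otherwise, with 347, 2258, 1886 and 258 in Meishan gilts, against 1747, 1483, 1161 and 1144 in Yorkshire gilts. Meishan gilts 1 and 4 were low there, Meishan gilts 2 and 3 were above every Yorkshire gilt, and the difference was -0.79 (SE 0.72, limma adjusted p = 0.657).

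COL1A2, a chain of type I collagen, the main collagen of fibrous stroma, had 3 probesets that did not agree in direction. COL1A2 1, named by the study's list alone, had signals of 26778, 29643, 29155 and 31389 in Meishan gilts, against 23069, 20678, 22344 and 20369 in Yorkshire gilts, a difference of 0.44 (SE 0.15) without overlap that was -0.038 after quantile normalization. COL1A2 2 had 3536, 1948, 2628 and 2946 in Meishan gilts, against 3369, 3827, 1090.4 and 1943 in Yorkshire gilts, and these ranges overlapped widely (0.24, SE 0.41, adjusted p = 0.831). COL1A2 3 had 308, 173, 160.1 and 127 in Meishan gilts, against 341, 222, 356 and 596 in Yorkshire gilts, with only Meishan gilt 1 inside the Yorkshire range (-0.97, SE 0.37, adjusted p = 0.284). The 3 probesets thus gave a Meishan to Yorkshire ratio of 1.35, 1.18 and 0.509.

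Type V collagen is a minor fibrillar collagen that joins type I and type III chains in mixed fibrils and limits their diameter. Its chain COL5A1 had 3 probesets with means of at least 64 in both breeds and 3 near background in both. COL5A1 1 had 2425, 1884, 2109.7 and 2068 in Meishan gilts, against 2579, 2662, 2073 and 2672 in Yorkshire gilts, with overlap and a difference of -0.23 (SE 0.17, adjusted p = 0.581). COL5A1 2 had 821, 658, 856 and 589 in Meishan gilts, against 1328, 1501, 1158 and 1098 in Yorkshire gilts, and here every Meishan gilt lay below every Yorkshire gilt, with a mean 1.75 times as high in Yorkshire (-0.81, SE 0.20, adjusted p = 0.147). COL5A1 3 lay the other way, with 211, 113, 218 and 198 in Meishan gilts, against 137, 159.9, 119 and 92.9 in Yorkshire gilts (0.52, SE 0.28, adjusted p = 0.432). Only Meishan gilt 2 reached down into the Yorkshire range of COL5A1 3.

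The partner chain COL5A2 was higher in Meishan at all 3 of its probesets. COL5A2 3 had 121, 184, 173 and 133 in Meishan gilts, against 77.3, 98.001, 100.4 and 60.2 in Yorkshire gilts, without overlap, and a mean 1.83 times as high in Meishan (0.87, SE 0.24, adjusted p = 0.178). COL5A2 1, of uncertain identity since the annotation gives it to CS, had 1955, 1472, 1386 and 1342 in Meishan gilts, against 1107, 1336, 1205 and 1243 in Yorkshire gilts, also without overlap, and the difference was 0.32 (SE 0.19). COL5A2 2 had 359, 145, 247 and 442 in Meishan gilts, against 299, 271, 100.2 and 300.4 in Yorkshire gilts, and both breeds held a low gilt (0.31, SE 0.47, adjusted p = 0.806). COL5A3 1, of the third chain of type V collagen, averaged 573 in Meishan and 636 in Yorkshire (-0.15, SE 0.22). COL2A1 and COL11A1 are known from cartilage. COL2A1 1 averaged 197 in Meishan and 174 in Yorkshire, and COL11A1 1 averaged 109 in Meishan and 51.8 in Yorkshire, near background there (1.07, SE 0.42, adjusted p = 0.292).

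**Figure D2:**
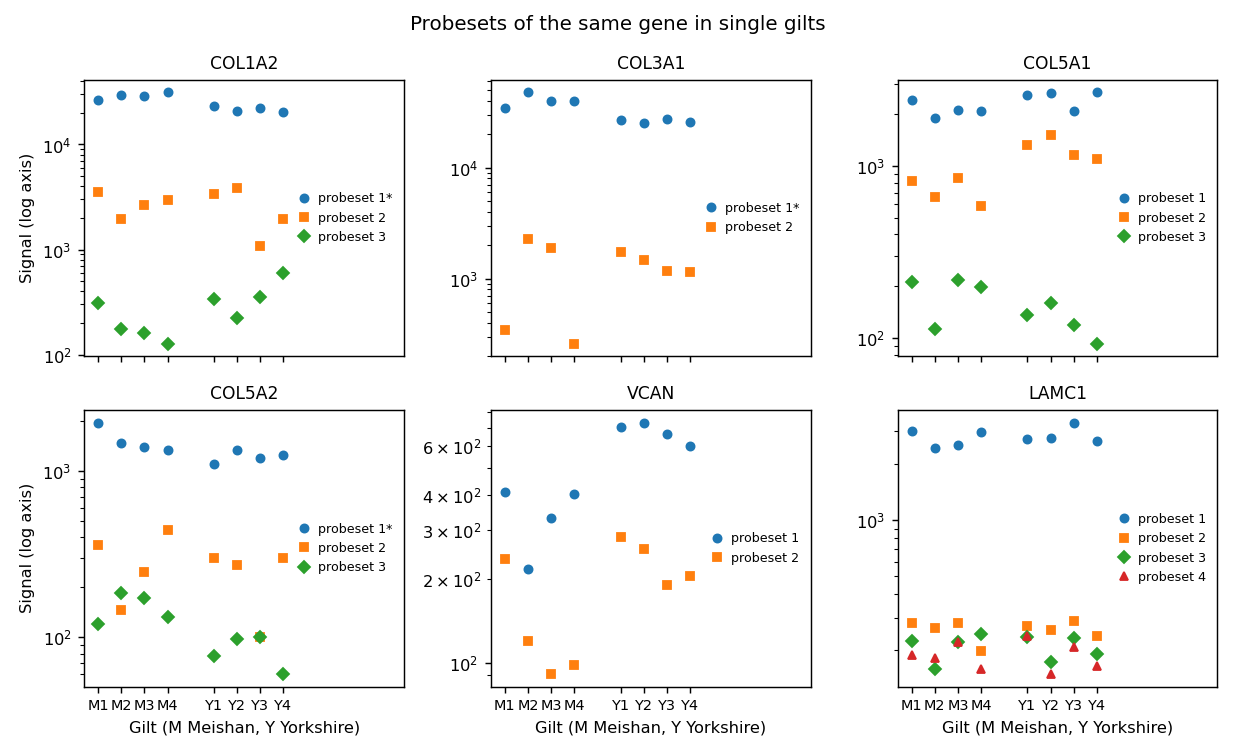
Signal (log axis, arbitrary units) of the probesets of 6 genes with means of at least 64 in both breeds, in Meishan gilts (M1 to M4) left and Yorkshire gilts (Y1 to Y4) right, with 1 symbol shape per probeset and an asterisk where the study's list alone names it. In COL1A2, COL3A1 and COL5A1 the probesets of the same gene lie on opposite sides, as do those of LAMC1 with differences near 0. Those of VCAN and of COL5A2 lie on the same side.

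Probesets of the same gene were compared where both had means of at least 64 in both breeds and both were named by the annotation. There were 16 such pairs in 9 genes, and 7 pairs in 4 genes (COL1A2, COL5A1, LAMC1 and SPARC) lay on opposite sides. In a two-sided exact permutation test over the 70 assignments of 8 gilts to 4 and 4, a test added after the data had been seen, the difference between the breeds differed between COL5A1 2 and COL5A1 3 by -1.33 on the log2 scale and between COL5A1 1 and COL5A1 2 by 0.57, both at p = 0.0286, which is the smallest the test allows (adjusted over the 16 pairs 0.229). COL1A2 2 and COL1A2 3 differed by 1.21 (exact p = 0.143, adjusted 0.571). No pair passed after adjustment over the 16, but a single pair could not pass even at the smallest p the test allows. The adjusted values therefore cannot decide whether the probesets of a gene differ.

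Basement membrane collagens had 2 probesets in the annotation, and both were higher in Yorkshire without passing the test. COL4A2, a chain of the network-forming type IV collagen of basement membranes, had 4237, 6168, 4393 and 3529.5 in Meishan gilts, against 5516, 6209, 6336 and 4584 in Yorkshire gilts, overlapping (-0.32, SE 0.22, adjusted p = 0.545). COL15A1, of a collagen that anchors basement membranes to the stroma, had 2829.9, 1058, 2225 and 1744 in Meishan gilts, against 2363, 2194, 1993 and 2882 in Yorkshire gilts (-0.34, SE 0.31, adjusted p = 0.661). COL18A1, a basement membrane collagen whose end fragment is the angiogenesis inhibitor endostatin, was named by the study's list alone. Its signals were 1032, 981, 1069 and 952 in Meishan gilts, against 1326, 1339, 1380.4 and 1758 in Yorkshire gilts, with all 4 Meishan gilts below all 4 Yorkshire gilts and a difference of -0.52 (SE 0.17). COL4A3, a type IV chain of specialised membranes such as that of the kidney glomerulus, was also named by the study's list alone and stood near background, with 40.2, 114, 43.3 and 67.5 in Meishan gilts, against 29.03, 11.3, 8.14 and 17.6 in Yorkshire gilts (2.04, SE 0.48).

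Endothelial cells lie on a basement membrane, and 8 of their marker genes were measured. All 8 of the listed endothelial genes had means of at least 64 in both breeds, 5 of the 8 were higher in Yorkshire, and the sum of their signals, in which the brightest probesets weigh most, was 5996 to 6231 in Meishan gilts and 6438 to 8190 in Yorkshire gilts. CLDN5, a tight junction protein of endothelium, averaged 324 in Meishan and 530.3 in Yorkshire (-0.71, SE 0.19, adjusted p = 0.170), and CDH5, the endothelial cadherin, averaged 1229 in Meishan and 1839 in Yorkshire (-0.58, SE 0.17, adjusted p = 0.185). At neither gene did the breeds overlap. The study also assayed CDH5 by quantitative PCR on RNA of these gilts and reported the same direction as on its arrays. PECAM1, an adhesion protein of endothelium, differed by 0.11, EGFL7 by 0.26 and ESAM by 0.041, with the ranges of the breeds overlapping. VWF differed by -0.53, TEK by -0.32 and KDR by -0.088, also with overlapping ranges. The part of vessels in the collagen values was not tested.

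Of the 7 laminin probesets, 3 were higher in Meishan and 4 in Yorkshire. None stood at an unadjusted p under 0.05, and none separated the breeds. Over all probesets with means of at least 64 in both breeds these shares were 13.6% and 10.9%. At such shares a set of 7 may well hold none. The sign turned under another scaling at LAMC1 1, LAMC1 2 and LAMC1 4. LAMC1, the gamma chain shared by most laminins, had 4 probesets, all above background. LAMC1 1 had 3019.6, 2427, 2535 and 2977 in Meishan gilts, against 2732, 2756, 3340.2 and 2670.0 in Yorkshire gilts, and its difference of -0.070 had a 95% confidence interval of -0.46 to 0.33. LAMC1 2, 3 and 4 differed by -0.054, 0.028 and -0.0017, and the intervals of all 4 lay between -0.49 (LAMC1 4) and 0.51 (LAMC1 3).

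LAMB1, a beta chain of many laminins, had 3431, 3708, 3379 and 3093 in Meishan gilts, against 3186, 3622, 3408 and 2186 in Yorkshire gilts at its brightest probeset (0.16, interval -0.32 to 0.63), and LAMB1 2 differed by 0.14 (SE 0.35). LAMB2, the beta chain known from muscle and kidney basement membranes, had 955, 634, 813 and 683 in Meishan gilts, against 894, 834, 1308 and 1019 in Yorkshire gilts (-0.39, SE 0.22, adjusted p = 0.453). Yorkshire gilt 3 was the highest of the 8 there. The laminin probesets that only the study's list named all lay toward Yorkshire. LAMA2 1, of the alpha chain of laminins around muscle and stromal cells, had 1047, 1568, 1393 and 992 in Meishan gilts, against 1593, 2649.8, 2161 and 1480.2 in Yorkshire gilts, which overlapped (-0.64, SE 0.26). LAMA2 2 had 138, 10.001, 15.2 and 29.6 in Meishan gilts, against 98.1, 184, 212 and 134 in Yorkshire gilts, where Meishan gilt 1 alone lay inside the Yorkshire range (-2.43, SE 0.76). LAMB1 3 had 10.2, 48.7, 47.2 and 5.41 in Meishan gilts, against 93.9, 106, 81.8 and 64.9 in Yorkshire gilts, near background in Meishan (-2.17, SE 0.71), and thus ran against the brighter LAMB1 probesets.

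**Figure D3:**
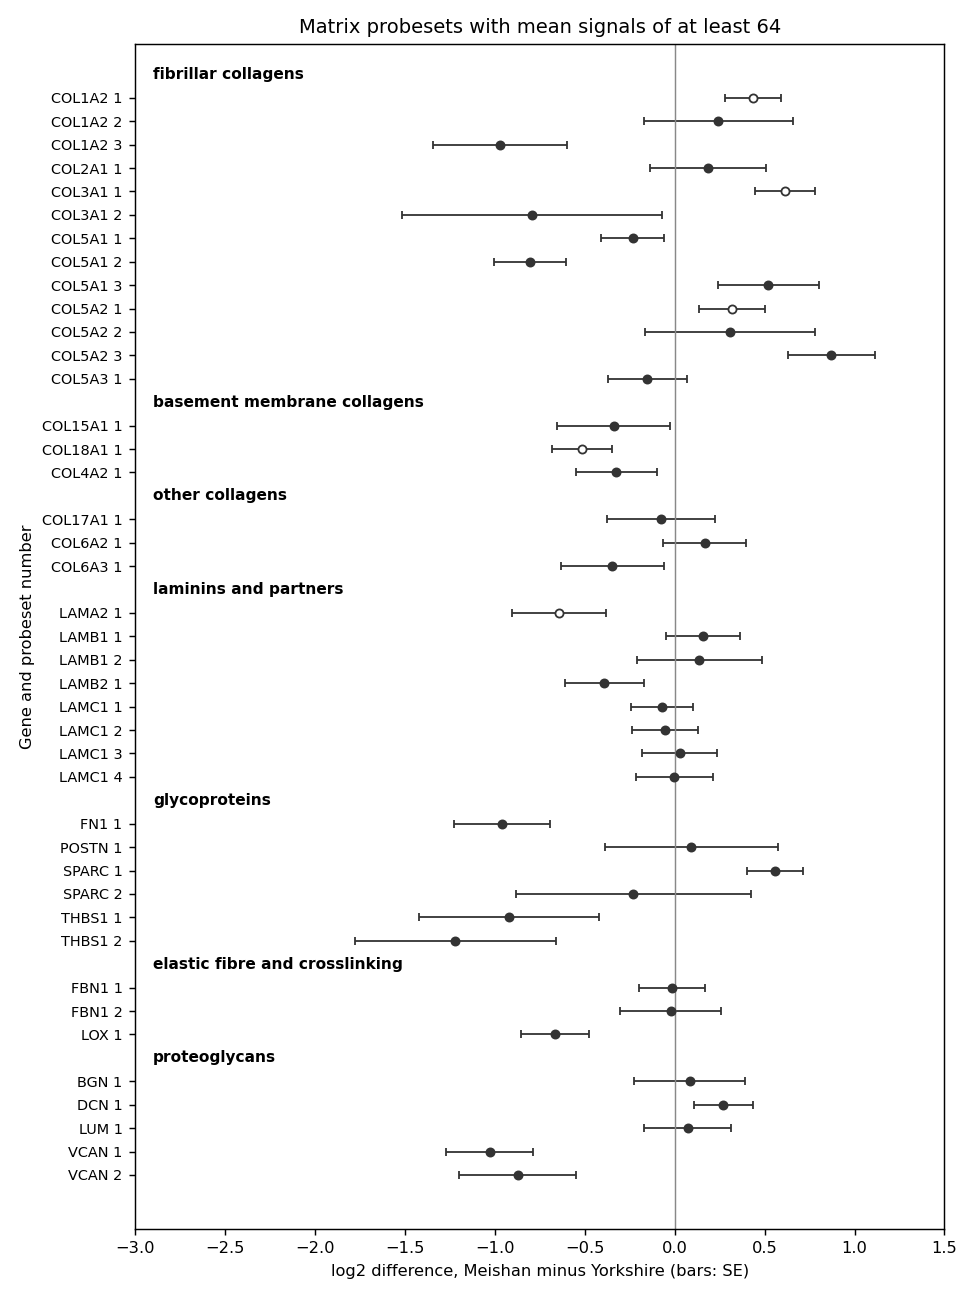
Log2 difference between the breeds (Meishan minus Yorkshire, bars are SE, n = 4 gilts each) for the 41 matrix probesets with means of at least 64 in both breeds, by role, with open circles where the study's list alone names the probeset. Values right of 0 are higher in Meishan. VCAN, FN1, THBS1, COL1A2 3 and COL5A1 2 lie farthest left, COL5A2 3, COL3A1 1 and SPARC 1 farthest right, and the LAMC1 and FBN1 probesets lie near 0.

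Of the remaining collagens, 10 probesets in 6 genes, 7 were higher in Meishan and 3 in Yorkshire, and only 3 of the 10 had means of at least 64 in both breeds. COL6A3, a chain of the beaded filaments of type VI collagen around cells, had 9198, 3601, 5777 and 4711 in Meishan gilts, against 7223, 7133, 6264 and 7299 in Yorkshire gilts (-0.35, SE 0.29, adjusted p = 0.624). Meishan gilt 1 was the highest of all 8 gilts and the other Meishan gilts were the lowest. COL6A2, another chain of the same filaments, had 1165, 1354, 947 and 897 in Meishan gilts, against 923, 1232, 1029 and 722 in Yorkshire gilts (0.17, SE 0.23). COL17A1 1, of a transmembrane collagen of epithelial hemidesmosomes, averaged 64.4 in Meishan and 67.9 in Yorkshire. COL17A1 2 lay the other way, with 90.6 in Meishan and 44.2 in Yorkshire, near background there (1.03, SE 0.69, adjusted p = 0.533). COL7A1, COL8A1 and COL10A1 were near background in at least 1 breed, as was COL13A1, which the study's list alone names. COL8A1 2, of a short-chain collagen of vessel walls and the cornea, averaged 41.3 in Meishan and 16.6 in Yorkshire (1.32, SE 0.68, adjusted p = 0.412). At COL10A1, known from growth cartilage, the signals were 13.6, 11.1, 59.3 and 46.97 in Meishan gilts, against 6.23, 13.4, 9.27 and 5.41 in Yorkshire gilts (1.66, SE 0.60, adjusted p = 0.263), and at COL13A1, a transmembrane collagen, they were 7.48, 20.1, 15.2 and 6.14 in Meishan gilts, against 4.34, 3.29, 2.82 and 4.09 in Yorkshire gilts (1.60, SE 0.40).

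The glycoproteins comprised 14 probesets in 5 genes, 5 higher in Meishan and 9 in Yorkshire. FN1 encodes fibronectin, which links collagen to integrins on cells. FN1 1 had signals of 3185, 3659, 2508 and 1858 in Meishan gilts, against 6426, 6044, 4987 and 4019 in Yorkshire gilts. Every Meishan gilt lay below every Yorkshire gilt, the mean was 1.95 times as high in Yorkshire, and the difference was -0.96 (SE 0.27, adjusted p = 0.179). FN1 2 had 52.02, 80.5, 68.1 and 2.24 in Meishan gilts, against 238, 227, 185 and 167 in Yorkshire gilts, again without overlap, but Meishan gilt 4 was far below the rest and the mean was near background in Meishan (-2.84, SE 1.07, adjusted p = 0.279). Without Meishan gilt 4 its difference was -1.62 and its adjusted p 0.0940. The study's list gives FN1 2 the name of another gene, OSTF1, so its identity is uncertain. FN1 3 and FN1 4 were near background in both breeds and lay the other way, toward Meishan, by 1.12 (SE 0.97) and 1.94 (SE 1.23).

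SPARC, a collagen-binding glycoprotein of remodelling tissue, lay the opposite way. SPARC 1 had 27575, 33558, 28863 and 28139.8 in Meishan gilts, against 20292, 18711, 20864 and 20127 in Yorkshire gilts, all Meishan gilts above all Yorkshire gilts (0.56, SE 0.16, adjusted p = 0.179). SPARC 2, little above background, had 85.98, 107, 156 and 16.7 in Meishan gilts, against 81.96, 122, 68.5 and 66.2 in Yorkshire gilts (-0.23, SE 0.65, adjusted p = 0.901). Meishan gilt 4 was the lowest there by far. The breed difference of SPARC 1 and that of SPARC 2 were 0.79 apart on the log2 scale (exact p = 0.314, adjusted 0.914).

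THBS1, thrombospondin, an adhesive protein that also inhibits vessel growth, spread widely among the gilts of each breed. THBS1 1 had 1192, 712, 362 and 263 in Meishan gilts, against 694, 1129, 836 and 1588 in Yorkshire gilts (-0.92, SE 0.50, adjusted p = 0.435). THBS1 2 had 338, 134, 125 and 69.5 in Meishan gilts, against 236, 370.2, 189 and 698 in Yorkshire gilts (-1.22, SE 0.56, adjusted p = 0.364). At both probesets Meishan gilt 1 was the highest Meishan gilt, Meishan gilt 4 the lowest of all 8 and Yorkshire gilt 4 the highest of all 8. POSTN, periostin, had 251, 78.3, 256 and 247 in Meishan gilts, against 191, 322, 137 and 113 in Yorkshire gilts, and TNC, tenascin C, a protein of developing and healing tissue, had 65.8, 12.8, 47.2 and 115 in Meishan gilts, against 69.3, 92.9, 81.3 and 110.1 in Yorkshire gilts, near background in Meishan. Meishan gilt 2 was the lowest of the 8 gilts at both.

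FBN1 and LOX make up the group of elastic fibre and crosslinking proteins, with 4 probesets. LOX, lysyl oxidase, crosslinks collagen and elastin outside the cell. LOX 1 had 206, 175, 237 and 162 in Meishan gilts, against 347, 277, 305 and 300.0 in Yorkshire gilts. These ranges did not overlap, and the mean was 1.59 times as high in Yorkshire (-0.67, SE 0.19, adjusted p = 0.180). LOX 2, near background in both breeds, had 64.7, 39.5, 69.9 and 48.5 in Meishan gilts, against 8.11, 47.6, 9.09 and 41.9 in Yorkshire gilts, the opposite direction with an adjusted p of 0.335. FBN1, fibrillin, the backbone of microfibrils, differed by -0.015 at FBN1 1 (interval -0.44 to 0.41) and by -0.023 at FBN1 2 (interval -0.67 to 0.62), and by 0.040 to 0.091 toward Meishan at both under the 3 other scalings. Its signals at FBN1 1 were 3321, 2181, 2331 and 2584 in Meishan gilts, against 2653, 2552, 2456 and 2735 in Yorkshire gilts.

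The proteoglycans had 9 probesets in 4 genes, 5 higher in Meishan and 4 in Yorkshire. VCAN, versican, a large proteoglycan that binds hyaluronan and is known from loose and remodelling stroma, was higher in Yorkshire at its 3 brightest probesets. VCAN 1 had 409.9, 217, 331 and 403 in Meishan gilts, against 706, 730.4, 665 and 600.4 in Yorkshire gilts. No gilts overlapped, and the mean was 2.04 times as high in Yorkshire (-1.03, SE 0.24, adjusted p = 0.130). VCAN 2 had 235, 119.5, 91 and 98.5 in Meishan gilts, against 284, 257, 189.7 and 204 in Yorkshire gilts, with only Meishan gilt 1 inside the Yorkshire range (-0.87, SE 0.33, adjusted p = 0.274). VCAN 3, near background in both breeds, had 44.5, 7.67, 24.1 and 31.4 in Meishan gilts, against 67.1, 65.4, 52.8 and 62.3 in Yorkshire gilts, again without overlap (-1.45, SE 0.50, adjusted p = 0.240). VCAN 4 and VCAN 5 were near background and differed by -0.13 and 0.52. VCAN 1 passed the threshold when dim probesets were left out (adjusted p = 0.0611), with an intensity trend (0.0542) and with low signals set to 32 (0.0787), and its difference was -0.95 after quantile normalization.

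The small leucine-rich proteoglycans did not share that direction. DCN, decorin, which coats collagen fibrils, had 16758, 21891, 18998 and 17752 in Meishan gilts, against 16090.3, 16053, 15833 and 14261 in Yorkshire gilts at DCN 1, without overlap (0.27, SE 0.16, adjusted p = 0.487). LUM, lumican, a relative of decorin, had 12585, 11216, 11356 and 13013 in Meishan gilts, against 13388, 12523, 7308 and 13952 in Yorkshire gilts (0.072, interval -0.48 to 0.63), and the difference was -0.049 after quantile normalization. Yorkshire gilt 3 alone was low. BGN, biglycan, another relative, had 1060.2, 1207, 619.7 and 603 in Meishan gilts, against 811, 1002, 849 and 550.4 in Yorkshire gilts (0.084, interval -0.63 to 0.79).

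The members higher in Meishan with the highest signals, COL3A1 1, COL1A2 1, SPARC 1 and DCN 1, all stood among the 100 brightest probesets of the array. Of these 100, 99 were higher in Meishan, with a median difference of 0.40. The highest signal on an array was 36713 to 56074 in Meishan gilts and 26698 to 30900 in Yorkshire gilts as deposited. After quantile normalization 53 of the 100 were higher in Meishan (median 0.011), and the difference became 0.014 at COL3A1 1, -0.038 at COL1A2 1, 0.14 at SPARC 1 and 0.030 at DCN 1. After cyclic loess it was 0.40 at COL3A1 1, 0.25 at COL1A2 1, 0.38 at SPARC 1 and 0.13 at DCN 1, and 94 of the 100 were higher in Meishan. Of the 22 annotated members higher in Yorkshire with means of at least 64 in both breeds, the difference turned toward Meishan after quantile normalization at FBN1 1, FBN1 2, LAMC1 1 and LAMC1 4, and it was -0.13 at COL5A1 1. FN1 1 stood at -0.90, VCAN 1 at -0.95, COL5A1 2 at -0.70 and LOX 1 at -0.64.

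**Figure D4:**
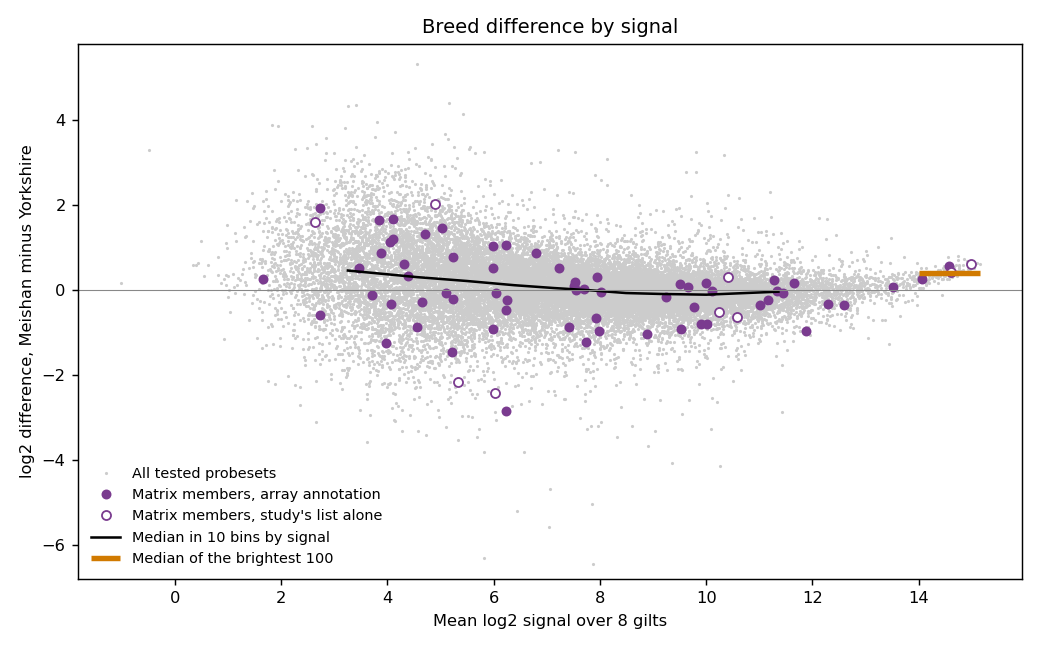
Log2 difference between the breeds (Meishan minus Yorkshire) against mean log2 signal over 8 gilts for all 23999 tested probesets (grey) and the matrix members (filled where the annotation names them, open where the study's list alone does), with the median in 10 bins of equal number as a black line. The orange bar marks the median of the brightest 100, 0.40, and 4 members lie at its level.

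**Figure D5:**
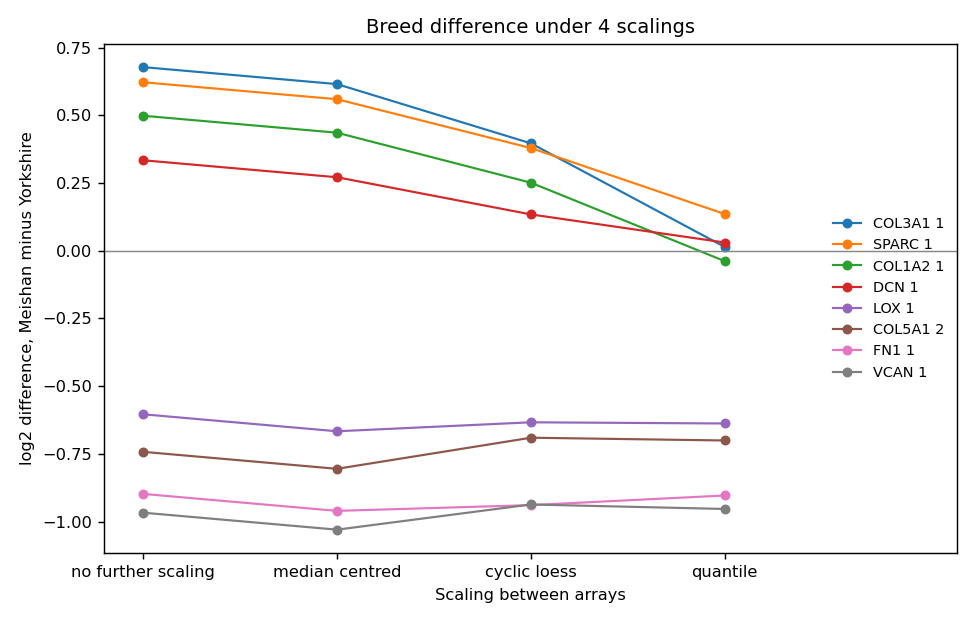
Log2 difference between the breeds (Meishan minus Yorkshire) of 8 matrix probesets with no further scaling, with each array centred on its median, after cyclic loess and after quantile normalization. The 4 upper lines meet near 0 after quantile normalization, whereas LOX, COL5A1, FN1 and VCAN stay between -1.03 and -0.60 under all 4.

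Single gilts were compared over the 36 probesets with means of at least 64 in both breeds. Meishan gilt 2 was the highest of the 8 gilts at 8 of them and the lowest at 9 (22.2% highest and 25% lowest, beside 10.4% highest and 16.4% lowest over all probesets at this level). Meishan gilt 4 was the lowest at 11 (30.6%, beside 15.8%). Meishan gilt 1 and Yorkshire gilt 1 were the lowest at none, beside 11.3% and 7.52% of all probesets at this level. Meishan gilt 1, the highest at 21.9% of all probesets at this level, was the highest at 3 matrix probesets (8.33%). Yorkshire gilt 3, the highest at 21% of all probesets at this level, was the highest at 4 matrix probesets (11.1%).

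Among other genes of matrix assembly, 44 of 111 listed genes were measured, each taken at its brightest probeset, and 0 passed the limma test (background 0.908%), with 1 higher in Meishan and 5 higher in Yorkshire at an unadjusted p under 0.05 (13.6%, beside 14.8% of all tested probesets). The unmoderated linear model on centred signals called 1 of them (background 0.946%), and 2 with Storey q-values (2.37%). Of 20 other matrix glycoproteins and proteoglycans, 7 were higher in Meishan and 13 in Yorkshire. SPARCL1, the close relative of SPARC, lay opposite to SPARC 1, with 4831, 5636, 5125 and 4367 in Meishan gilts, against 9305, 9390.1, 10378 and 7589 in Yorkshire gilts, a mean 1.83 times as high in Yorkshire (-0.87, SE 0.18, adjusted p = 0.103). TNXB, tenascin X, which binds fibrillar collagen, had 729, 881, 566 and 528 in Meishan gilts, against 1332, 1824, 1553 and 1109 in Yorkshire gilts (-1.11, SE 0.24, adjusted p = 0.118). Neither gene's gilts overlapped. MGP, matrix Gla protein, averaged 2386 in Meishan and 3290.4 in Yorkshire (-0.46, SE 0.20, adjusted p = 0.330). SPP1, osteopontin, an integrin ligand of the uterine epithelium, averaged 1025 in Meishan and 2327 in Yorkshire (-1.18, SE 0.57, adjusted p = 0.383).

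Of the 11 measured genes of collagen processing, 8 were higher in Meishan and 3 in Yorkshire, with a median difference of 0.19. LOXL4, a relative of LOX that also crosslinks collagen, had 149, 250.2, 164 and 202 in Meishan gilts, against 85.7, 138, 109 and 95.5 in Yorkshire gilts, without overlap and opposite to LOX 1 (0.83, SE 0.24, adjusted p = 0.185). PCOLCE2, which enhances cleavage of procollagen by BMP1, averaged 1116 in Meishan and 1592 in Yorkshire (-0.51, SE 0.23), while CRTAP, a part of the prolyl 3-hydroxylation complex, averaged 1869 in Meishan and 1528 in Yorkshire without overlap (0.29, SE 0.17, adjusted p = 0.464). BMP1 itself differed by 0.24 (SE 0.19).

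Of the 13 measured matrix receptors, 6 were higher in Meishan and 7 in Yorkshire. ITGB3, the integrin chain that pairs with ITGAV to bind osteopontin and fibronectin, had 43.2, 115, 140.1 and 79.98 in Meishan gilts, against 304, 223, 342 and 189.8 in Yorkshire gilts, without overlap, and a mean 2.98 times as high in Yorkshire (-1.58, SE 0.39, adjusted p = 0.145). The study also assayed ITGB3 by quantitative PCR on RNA of these gilts and reported the same direction as on its arrays. ITGA2, of a collagen receptor, averaged 69.99 in Meishan and 132 in Yorkshire (-0.92, SE 0.38, adjusted p = 0.316). ITGB5 differed by -0.62 (SE 0.28) and ITGA8, which binds fibronectin and tenascin, by 0.61 (SE 0.32).

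Marker genes were examined for the tissue and for the cells it could hold, and 0 of 47 measured genes passed the limma test, while 6 stood at an unadjusted p under 0.05 (12.8%, beside 14.8% of all tested probesets). The unmoderated linear model on centred signals called 0 of the 47 (background 0.946%), and 3 with Storey q-values (6.38%, background 2.37%). The 6 measured endometrial markers, ESR1, PGR, ACP5, FOXA2, PTGS2 and SPP1, all had means of at least 64 in both breeds, as had 9 of 9 measured epithelial genes. PGR, the progesterone receptor, averaged 336 in Meishan and 495 in Yorkshire without overlap (-0.56, SE 0.20, adjusted p = 0.263). Of 5 stromal fibroblast genes 1 was higher in Meishan and 4 in Yorkshire, with a summed signal of 27750 to 30644 in Meishan gilts and 20020 to 35055 in Yorkshire gilts. VIM, vimentin, averaged 25493 in Meishan and 18368 in Yorkshire without overlap (0.47, SE 0.16, adjusted p = 0.245), and it too belongs to the brightest probesets. THY1 averaged 843 in Meishan and 3113 in Yorkshire, with Yorkshire gilts from 474 to 10575. Of 7 smooth muscle genes, 1 was higher in Meishan and 6 in Yorkshire, and the summed signals overlapped at 18121 to 29760 in Meishan gilts and 21224 to 30673 in Yorkshire gilts. The summed signals of 5 leukocyte genes (891 to 1102 in Meishan gilts, 834 to 1015 in Yorkshire gilts) and of 2 erythrocyte genes (913 to 1249 in Meishan gilts, 830 to 1313 in Yorkshire gilts) overlapped. Of the 5 leukocyte genes, 2 were higher in Meishan and 3 in Yorkshire. CD3E averaged 96.2 in Meishan and 152 in Yorkshire (-0.66, SE 0.27, adjusted p = 0.308). CD14 averaged 255 in Meishan and 168 in Yorkshire (0.60, SE 0.32, adjusted p = 0.431). Trophoblast genes summed to 292 to 1389 in Meishan gilts and 331 to 7032 in Yorkshire gilts, and 1 of the 5 genes was higher in Meishan and 4 in Yorkshire. IFNG, an interferon that the pig conceptus secretes, carried most of the high sums, with 14.2, 904, 304 and 114 in Meishan gilts, against 4604, 221, 6286 and 33.5 in Yorkshire gilts (-2.23, SE 1.91, adjusted p = 0.636). CYP17A1 and TFAP2C were near background in both breeds. TFAP2C averaged 6.07 in Meishan and 51.02 in Yorkshire (-3.07, SE 0.63, adjusted p = 0.105). The part of these cells in the matrix values was not tested.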

How the data were processed

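RNA of endometrium from 8 gilts was hybridised to Affymetrix Porcine Genome arrays, and 1 array per gilt was used. The authors deposited intensities on a linear scale, computed with GCOS 1.2 per the submitters' processing notes, and their mean after trimming 2% of values at each end was 500.1 on every array. Of 24123 probesets, 124 controls were left out and 23999 were tested. The study took natural logs and fitted a mixed model with slide and animal terms, which cannot be separated from the residual with 1 array per gilt. Scan dates and other batches were not given in the sources used here.

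Log2 signals were centred on each array's median and compared between breeds with limma 3.58.1 in R 4.3.3 (linear model, empirical Bayes moderation, prior degrees of freedom 2.09, Benjamini-Hochberg adjustment over all tested probesets). Calls were made at an adjusted p under 0.1, the level at which the study took its q-values. The fitting code was first tested on simulated data. Median array signals were 168 to 195 in Meishan gilts and 171 to 187 in Yorkshire gilts, and precision is limited by the number of arrays. Symbols came from the array's annotation, which names 1 gene for 10069 tested probesets, and all 64 annotated members matched by Entrez identifier without a change of symbol. From the study's list of transcripts only names were used, and the copy used was incomplete. No sequences were used. The alternatives were other scalings, a dim filter (mean log2 signal of at least 6), a floor of 32, an intensity trend, an unmoderated linear model (on centred signals and, added later, on deposited signals), a threshold of 0.05, a replicate block and leaving out each gilt.

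The members and lists were chosen with earlier results of these data known. Named with values are, for each role, the probesets of up to 6 genes with the brightest probesets and the 3 with the lowest p. So are genes with probesets of at least 64 on opposite sides and members that the study's list alone names. In each pathway list, up to 4 genes of lowest p are named with values. Genes near background are given by counts and ranges where they meet no other part of this rule. Marker lists were planned the same way as pathway lists. The marker genes given with values depart from that plan, and some were chosen after their values were seen.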

Additional observations from a re-analysis of the deposited data

Results flagged for a closer look

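At all members, those of the study's list included, with means of at least 64 in both breeds, 82 groups of 4 gilts were checked for a gilt that stood apart, meaning that its gap to the nearest other gilt exceeded Dixon's critical share of the range of its group. Of these, 9 stood apart. Chance alone would give about 1 in 20 if the groups were normal and independent, but they come from the same 8 gilts. The share over all tested probesets was not computed, so the 9 cannot be called particular to the matrix members. Among Meishan gilts, gilt 2 was lowest at COL5A1 3 (113, the others 198 to 218) and at POSTN 1 (78.3, the others 247 to 256). Yorkshire gilt 3 was lowest at COL5A1 1 (2073, the others 2579 to 2672), COL5A2 2 (100.2, the others 271 to 300.4), COL6A3 (6264, the others 7133 to 7299) and LUM (7308, the others 12523 to 13952), and highest at LAMC1 1 (3340.2, the others 2669.96 to 2756). Yorkshire gilt 4 was highest at COL18A1 (1758, the others 1326 to 1380.4) and lowest at DCN 1 (14261, the others 15833 to 16090.3). Of the 9, 5 were Yorkshire gilt 3. Over all tested probesets at this level, it was the highest of the 8 gilts at 21% and the lowest at 12.6%. Without that gilt the difference was -0.40 at COL6A3, -0.14 at LUM and -0.076 at COL5A2 2.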

How the results depend on the processing

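Differences are Meishan minus Yorkshire on the log2 scale. Of the 64 matrix probesets 0 were called, and 0 were called without further scaling, after quantile normalization, after cyclic loess, at an adjusted p under 0.05 and, of 73, with the probesets that the study's list alone names counted too. The count was 4 with dim probesets left out (1 higher in Meishan, 3 in Yorkshire), 6 with low signals set to 32 (1 higher in Meishan, 5 in Yorkshire), 3 with an intensity trend in the prior (all 3 higher in Yorkshire), 5 with dim probesets left out and an intensity trend together (1 higher in Meishan, 4 in Yorkshire, an alternative chosen after seeing the data), 3 with the unmoderated linear model on centred signals and Storey q-values (1 higher in Meishan, 2 in Yorkshire) and 1 with that model and Benjamini-Hochberg adjustment (SPARC 1). That model on the deposited signals without centring, chosen after seeing the data, called 1 with Storey q-values (higher in Meishan) and 0 with Benjamini-Hochberg adjustment. Leaving out each gilt in turn gave 0 to 1 calls, the 1 being FN1 2 without Meishan replicate 4. LAMA2 2, which the study's list alone names, reached -3.19 (adjusted p = 0.0634) without Meishan replicate 1. Of the pathway genes 0 were called, and 3 with dim probesets left out, 2 with the floor of 32, 3 with the intensity trend, 2 with Storey q-values and 1 with the linear model, each higher in Yorkshire, 2 with Storey q-values and no centring (1 higher in Meishan, 1 in Yorkshire), with 0 for the other settings and 0 whichever gilt was left out. The dim filter left 16718 probesets to test, and the cause of the changes was not tested.

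The replicate numbers do not pair the gilts, which come from different animals of each breed. The deviations of same-numbered gilts correlated at -0.0561, 0.089, 0.001 and 0.0407, and 2 Meishan gilts and 1 Yorkshire gilt correlated best with their own number. With the replicate number as a block 0 matrix probesets and 0 pathway genes were called, and 0 of all tested probesets.

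The filter, the variance settings, the thresholds and the block leave a difference as it is. Among settings that can change it, the direction reversed in 15 of 219 values under the 3 other scalings and in 5 of 68 with the floor. Reversed were, after cyclic loess, FBN1 1 (0.044), FBN1 2 (0.091), THBS1 5 (-0.30) and LUM (-0.023), after quantile normalization FBN1 1 (0.084), FBN1 2 (0.081), COL1A2 1 (-0.038), THBS1 5 (-0.24), LAMC1 1 (0.025), LAMC1 4 (0.011) and LUM (-0.049), without further scaling FBN1 1 (0.048), FBN1 2 (0.040), LAMC1 2 (0.0087) and LAMC1 4 (0.061), and with the floor of 32 COL2A1 2 (-0.10), COL5A3 2 (0.67), POSTN 2 (0.18), SPARC 2 (0.0057) and COL8A1 1 (0.22). Without 1 gilt, 44 of 584 values reversed, in 22 members, with ranges of -0.14 to 0.064 for FBN1 1, -0.20 to 0.13 for FBN1 2, -0.73 to 0.13 for COL11A1 2, -0.11 to 0.49 for COL1A2 2, -0.038 to 0.36 for COL2A1 1, -0.99 to 0.13 for COL5A1 6, -0.076 to 0.61 for COL5A2 2, -0.77 to 1.06 for COL5A3 2, -0.12 to 0.51 for POSTN 1, -0.93 to 0.50 for POSTN 2, -0.61 to 0.46 for SPARC 2, -0.0022 to 0.24 for LAMB1 1, -0.15 to 0.39 for LAMB1 2, -0.12 to 0.0044 for LAMC1 1, -0.10 to 0.062 for LAMC1 2, -0.056 to 0.16 for LAMC1 3, -0.11 to 0.12 for LAMC1 4, -0.27 to 0.11 for COL17A1 1, -0.64 to 0.30 for COL8A1 1, -0.096 to 0.24 for BGN 1, -0.14 to 0.17 for LUM 1 and -0.27 to 0.051 for VCAN 4. Every member that reversed under either kind of setting had a difference of at most 0.59 in size.

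With 4 arrays per breed and moderation by a prior of 2.09 degrees of freedom, precision is limited by the number of arrays. Means of at least 64 in both breeds were found at 41 of all 73 members, at 48 with a level of 5 on the log2 scale and at 36 with a level of 7. With the floor, 5 members had every gilt at 32 and gave no value.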
